A study of Mus musculus with 2 samples.

Results

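Ephrins and Eph receptors, 9 genes in all, were followed through the cells of the mouse genital tubercle on embryonic day 14.5, the stage at which this outgrowth that forms the penis or clitoris still looks much alike in both sexes. They were the ligands Efnb1, Efnb2 and Efna5 and the receptors Ephb2, Ephb3, Ephb4, Epha3, Epha4 and Epha7, taken by symbol: 9 of the 22 ephrin and Eph genes, and of the 31053 genes, that the files list. The data are droplet single-cell RNA counts from 1 male and 1 female library. Both came from wild-type C57BL/6 embryos at Theiler stage 22, with the tubercles of 3 embryos pooled for each sex. The embryos came from 2 litters, were held in medium for 2 hours and were digested with collagenase for 30 minutes at 37 °C. Kept barcodes had 2000 or more unique molecules (UMIs), 500 or more genes and no more than 10% of UMIs from mitochondrial genes, which left 14872 male and 15910 female cells after likely doublets were removed.

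Eph receptors are receptor tyrosine kinases, and their ephrin ligands are tied to the membrane of a neighbouring cell, so the pair signals only at cell contact. The receptor side carries forward signalling. B-type ephrins span the membrane and also signal in reverse, while A-type ephrins hang on a lipid anchor. EphA receptors mostly bind A-type ephrins and EphB receptors B-type ephrins, with EphA4 also binding B-type and EphB2 also binding ephrin-A5. Contact between a ligand domain and a receptor domain often repels cells and keeps tissue borders sharp, and in the tubercle mouse mutants of ephrin-B2 reverse signalling, or of EphB2 and EphB3 together, are known for failure of urethral closure.

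There was 1 library for each sex, so no group has a replicate and no test between samples was possible. A level is given as CPM, the UMIs of a gene per 1000000 UMIs summed over the cells of a type, which weights large cells more, with a 95% interval that covers counting error only. A ratio is given on the log2 scale with an exact 95% interval of the same kind. Cells within a library are not replicates, and the spread between pools of embryos is not in these intervals. Counts of this kind come from the 3' end of transcripts and are compared here for one gene across cell types, not between genes.

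The median kept cell held 4892 UMIs in male and 4887 in female cells. Xist stood at 0.0514 CPM in male and 1370 CPM in female mesenchyme, which matches the labels. The libraries shared 65 of the kept barcodes. Cells were clustered without any ephrin or Eph gene, and clusters were named by lists of marker genes: 14184 male and 15382 female cells were mesenchyme-like, 134 and 79 endothelium-like, and 142 and 88 epithelium-like. Endothelial cells were deeper than mesenchyme cells, with a median of 13568 UMIs in male and 11332 in female cells against 4808 and 4829. The mesenchyme marker list, summed, stood in endothelium at 2.98% (male) and 4.14% (female) of its level in mesenchyme, in epithelium at 8.04% and 13.2%, and in erythroid cells, which should lack these genes, at 40.0% and 43.2%. A group of 173 smooth muscle-like cells was present in the male library only, so that group cannot be told apart from the library.

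All 9 members lie on chromosomes of the mm10 assembly, and the GENCODE M21 annotation places each as a protein-coding gene. The ligand genes are Efnb1 on the plus strand of chrX:99136130-99148991, Efnb2 on the minus strand of chr8:8617434-8661242 and Efna5 on the minus strand of chr17:62604184-62881317. The EphB genes are Ephb2 on the minus strand of chr4:136647539-136835988, Ephb3 on the plus strand of chr16:21204755-21223305 and Ephb4 on the plus strand of chr5:137350109-137378669. The EphA genes are Epha3 on the minus strand of chr16:63543534-63864175, Epha4 on the minus strand of chr1:77367185-77515088 and Epha7 on the plus strand of chr4:28813131-28967499.

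Promoters are shown for the pair that was higher in endothelium (Efnb2 and Ephb4) and for the pair of receptors whose levels ran together across the mesenchyme (Epha4 and Epha7). Each is the 250 bases before the RefSeq start site, build GRCm38.p6, 5′ to 3′ on the gene's strand. All 9 members had an entry, and of the 2 for Epha7 the first is shown. Capitals mark the letters CCAAT or GGGCGG, or their reverse complements. The windows are chr8:8661243-8661492 (minus) for Efnb2, chr5:137349859-137350108 (plus) for Ephb4, chr1:77515089-77515338 (minus) for Epha4 and chr4:28812881-28813130 (plus) for Epha7.
Efnb2: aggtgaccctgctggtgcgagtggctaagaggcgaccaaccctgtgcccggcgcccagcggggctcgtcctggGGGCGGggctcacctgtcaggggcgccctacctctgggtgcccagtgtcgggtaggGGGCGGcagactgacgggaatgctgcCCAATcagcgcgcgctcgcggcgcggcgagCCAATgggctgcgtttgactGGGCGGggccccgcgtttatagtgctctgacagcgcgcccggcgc
Ephb4: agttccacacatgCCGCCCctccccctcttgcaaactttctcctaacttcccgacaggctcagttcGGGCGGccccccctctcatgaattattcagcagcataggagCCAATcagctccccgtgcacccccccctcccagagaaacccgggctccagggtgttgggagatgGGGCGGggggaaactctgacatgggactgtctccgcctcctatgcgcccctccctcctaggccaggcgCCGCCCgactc
Epha4: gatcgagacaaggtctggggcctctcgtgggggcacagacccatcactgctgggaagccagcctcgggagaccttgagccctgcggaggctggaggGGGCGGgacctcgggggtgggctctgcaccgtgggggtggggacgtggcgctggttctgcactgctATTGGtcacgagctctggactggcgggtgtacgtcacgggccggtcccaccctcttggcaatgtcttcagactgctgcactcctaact
Epha7: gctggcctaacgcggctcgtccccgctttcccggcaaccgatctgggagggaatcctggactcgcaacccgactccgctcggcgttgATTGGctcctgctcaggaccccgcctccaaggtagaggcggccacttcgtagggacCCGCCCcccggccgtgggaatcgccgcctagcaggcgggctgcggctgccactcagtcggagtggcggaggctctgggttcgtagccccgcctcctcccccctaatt

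Over the 300-base windows that end 50 bases past the start, 6 of the 9 members held CCAAT and 6 held GGGCGG on either strand, against 37.4% and 35.7% of the 32851 RefSeq mouse promoters. Epha3 held neither. The 3 other motifs searched, CAATAAA (as bound by HOX13 proteins), CCGGAAG (as bound by ETS proteins) and CTTTGAT (as bound by TCF/LEF proteins), were found in 0 of the 9 members and in 4.6%, 8.86% and 3.73% of all promoters. These are letter matches and no measure of binding. The windows of the members held from 14 (Efnb1 and Ephb4) to 38 (Efna5) CG pairs, against a median of 7 over all promoters. GGGCGG itself holds a CG, and the members were not matched to promoters of like CG count.

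**Figure D1:**
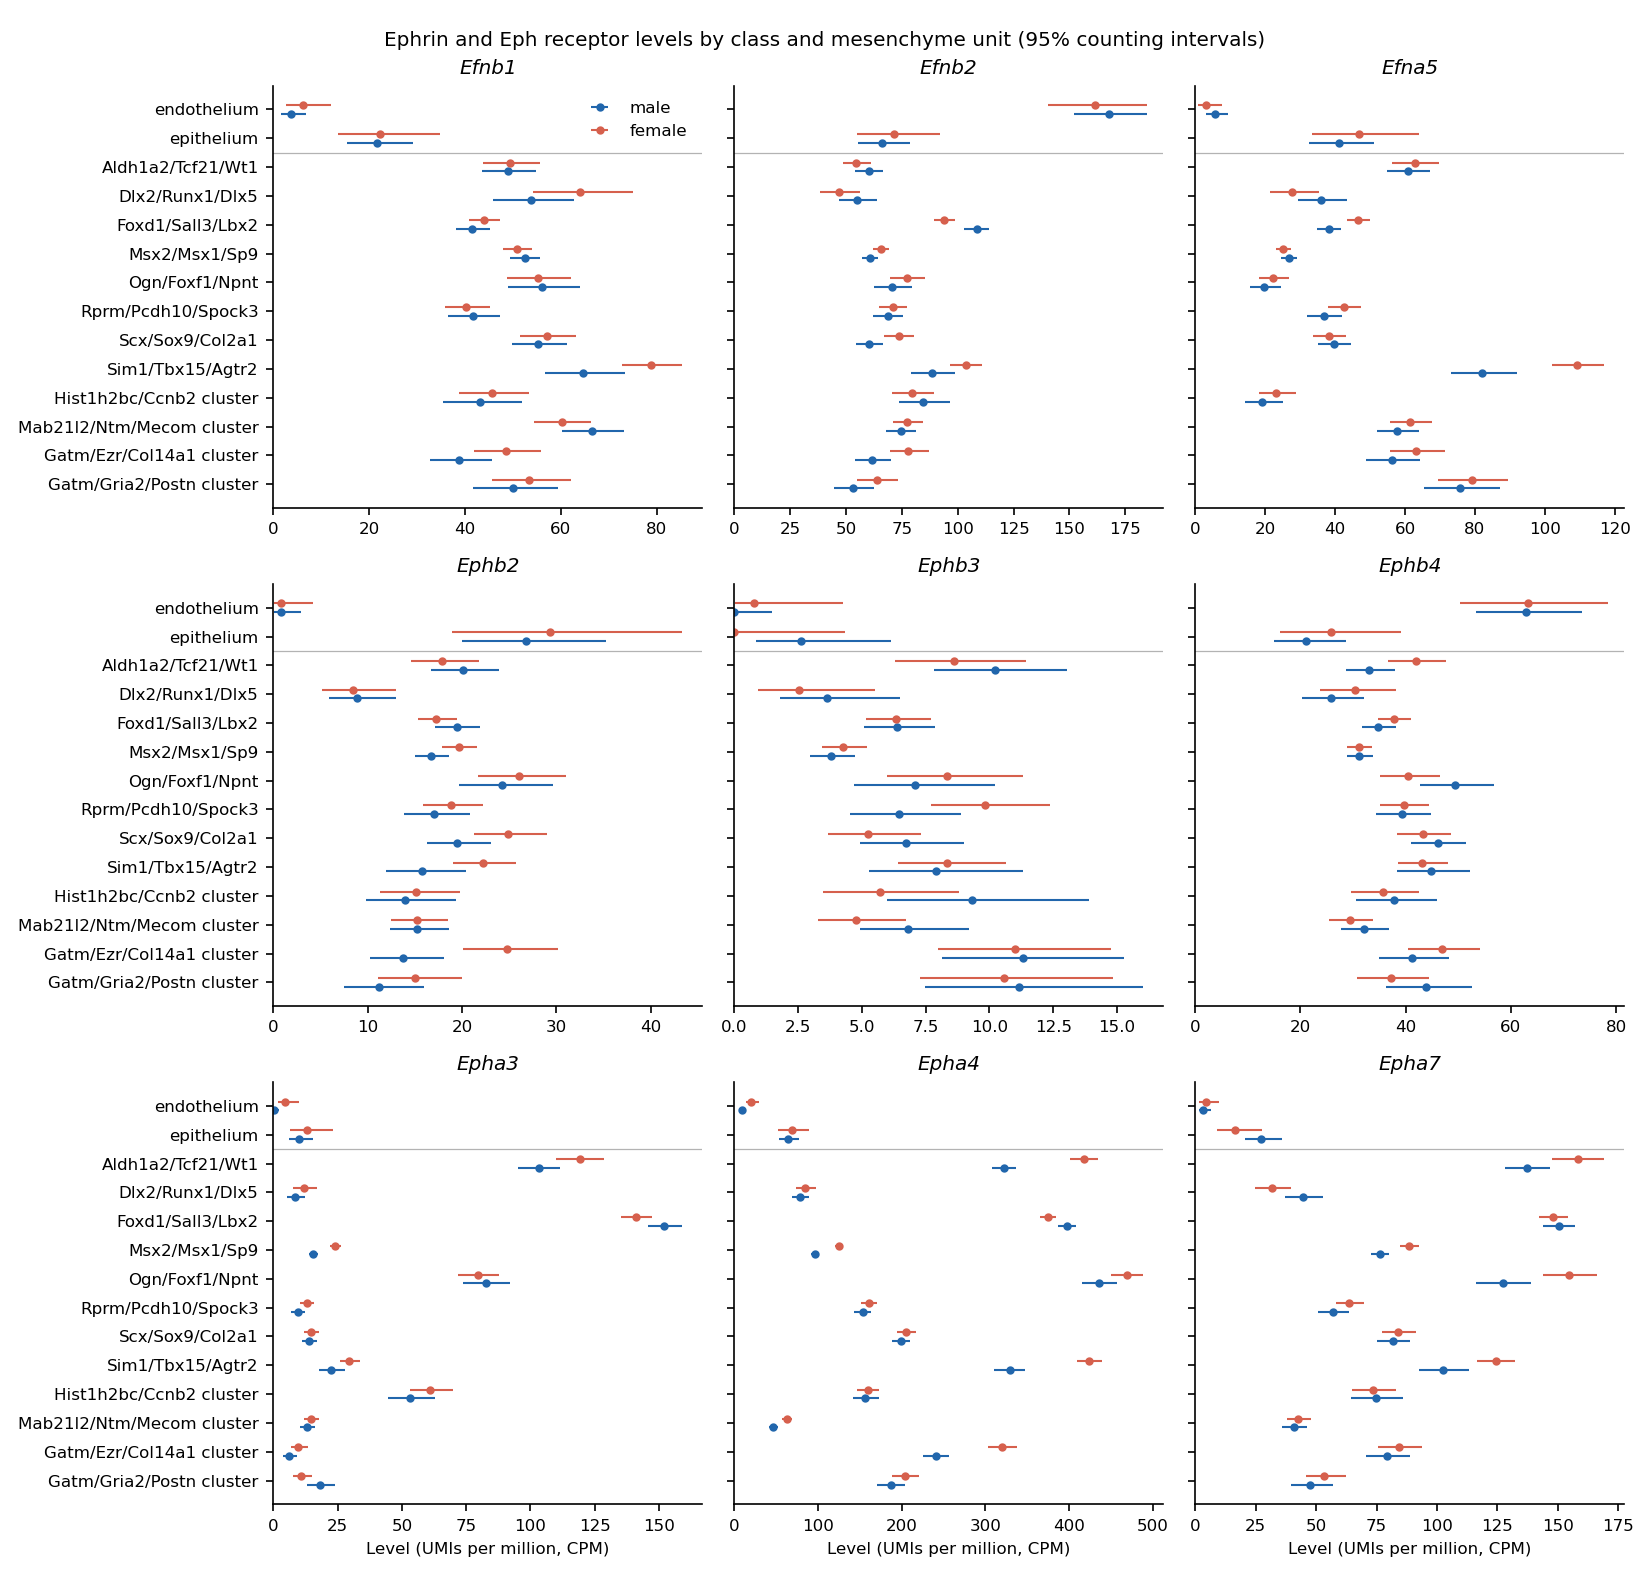
Level of each member (x axis, CPM, from 0) in endothelium, epithelium and 12 mesenchyme units (y axis); points are the male (blue) and female (red) library and bars are 95% counting intervals. Efnb2 and Ephb4 sit highest in endothelium, the other members are near 0 there, and Epha3 and Epha4 differ most among the mesenchyme units.

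Endothelium held a ligand and a receptor of the B class and little else of the 9 genes. Efnb2, the ligand that marks arterial endothelium in the embryo, stood at 168 CPM (interval 152 to 185) in male and 162 CPM (141 to 185) in female endothelium, against 72.7 and 76.3 CPM in mesenchyme. The endothelial level was higher by 1.21 (1.06 to 1.35) on the log2 scale in the male and 1.08 (0.88 to 1.28) in the female library. Ephb4, the receptor that marks veins and binds ephrin-B2, stood at 62.9 and 63.2 CPM in endothelium against 36.4 and 37.1 CPM in mesenchyme, log2 ratios of 0.79 (0.55 to 1.02) and 0.77 (0.44 to 1.09). Both genes were thus higher in endothelium in both libraries, by less than 4-fold.

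The other 7 members were at least 4-fold lower in endothelium than in mesenchyme in both libraries, where 6.91% of the 13247 genes tested were (0 members, and 5.4% of genes, were at least 4-fold higher). Epha4 had 22 UMIs in male and 27 in female endothelium, or 8.87 and 20.6 CPM, which is 4.14% and 8.3% of its mesenchyme level. Epha7 had 8 and 6 UMIs, or 3.51% and 4.54% of the mesenchyme level. Ephb2, with 2 and 1 UMIs, and Ephb3, with 0 and 1 UMIs, were hardly seen there. With 0 male UMIs, Ephb3 was at least 5.43-fold lower in endothelium, taking 3 counts as the floor. With 1 UMI in the female library, its log2 ratio was -3.11 with an interval up to -0.63. The mesenchyme markers stood at 2.98% and 4.14% in the same cells, and the part that RNA from mesenchyme has in these low levels was not tested. Over all 9 members the median log2 ratio of CPM + 1, a scale that takes in genes with 0 UMIs and shrinks low levels, was -3.33 in male and -3.24 in female cells, against -0.30 and -0.38 over all genes tested. With every cell thinned to 2000 UMIs the count at least 4-fold lower was 3, and with at most 5% mitochondrial UMIs, which left 1213 male and 1101 female cells, it was 1.

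Efnb2 and Ephb4 were found in many of the same endothelial cells. Of the 134 male cells, 102 held an Efnb2 UMI, 78 an Ephb4 UMI and 66 both, where the product of both shares gives 59.4. Of the 79 female cells, 56 held Efnb2, 39 Ephb4 and 33 both, where the product gives 27.7. Only 12 male and 6 female cells held Ephb4 alone. With every cell thinned to 2000 UMIs, 30.6% of male and 27.8% of female endothelial cells held Efnb2, against 4.84% and 6.54% of erythroid cells. Without thinning the shares were 76.1% and 70.9% against 19.4% and 19.6%, at median depths of 13568 and 11332 against 7926 and 8398 UMIs. After thinning, 5 male and 3 female endothelial cells held both genes, where the products give 4.28 and 3.06, and at that depth these counts are too small to tell sharing from separation.

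A sub-cluster of 22 male and 15 female endothelial cells was named arterial-like. Its mean log2 fold for the arterial list was 1.58 against the rest of the endothelium. It was led by Eln, Gja5, Fbln5, Vwf and Acta2. Of these Gja5 is on the arterial list, Vwf on the venous and lymphatic list and Acta2 on the smooth muscle list. The arterial marker Gja4 stood at 505 and 256 CPM, against 51.5 and 72.2 CPM in the other endothelial cells. Dll4, also on that list, stood in the sub-cluster at 180 CPM (male) and 99.0 CPM (female), against 63.4 and 100 CPM. Efnb2 stood there at 358 CPM in male and 204 CPM in female cells, against 134.8 and 146.5 CPM in the other endothelial cells (log2 1.41, interval 1.10 to 1.71, and 0.48, interval 0.04 to 0.90). Ephb4 stood at 65.5 CPM against 62.4 CPM in the male library (log2 0.07, interval -0.62 to 0.70) and at 105 CPM against 48.5 CPM in female cells (log2 1.11, interval 0.44 to 1.77). After thinning, the male Ephb4 ratio was -1.35. All 22 male and 14 of the 15 female arterial-like cells held an Efnb2 UMI, and 12 and 14 of them also held Ephb4. No sub-cluster was named venous or lymphatic, since in none was the list for those cells higher than in the rest of the endothelium by the 1 log2 unit that a name required.

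**Figure D2:**
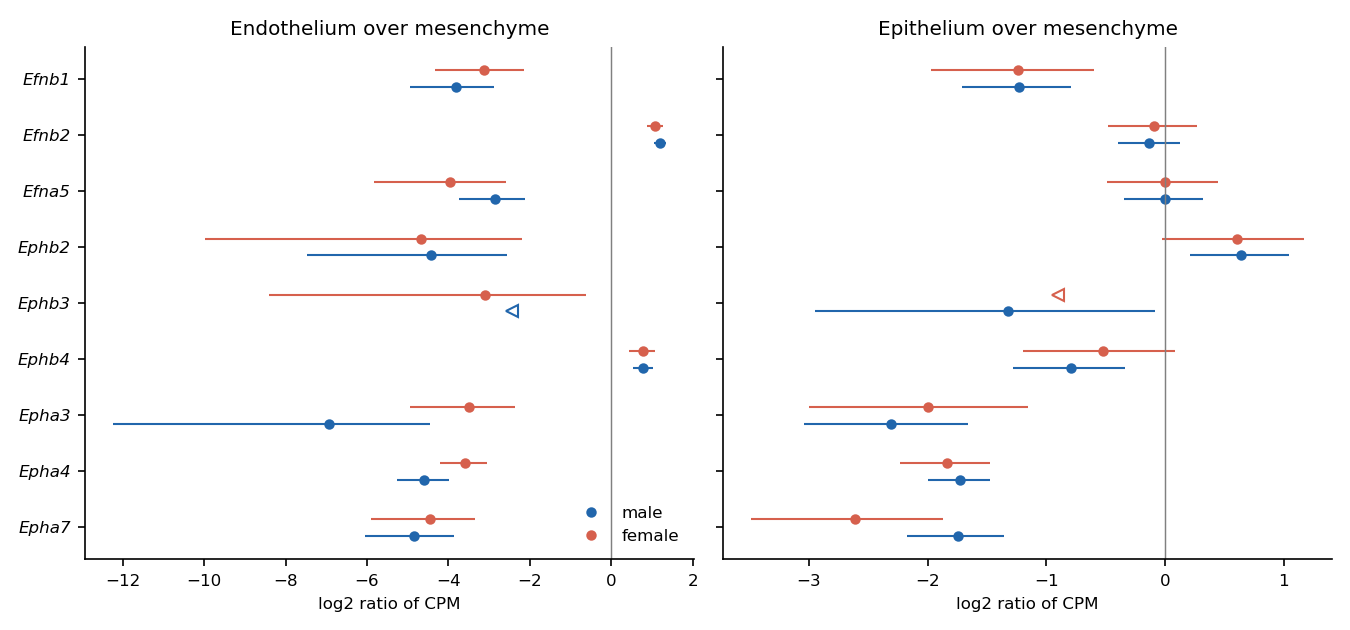
Log2 ratio of CPM of each member (rows) in endothelium (left) and epithelium (right) over mesenchyme of the same library, male in blue and female in red, with exact 95% counting intervals; an open triangle is an upper bound for a gene with 0 UMIs in the class. In endothelium only Efnb2 and Ephb4 lie right of 0, and in epithelium only Ephb2.

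In epithelium the ligands Efnb2 and Efna5 stood level with mesenchyme at the main settings, and most receptors stood lower. Efnb2 was at 66.2 CPM in male and 71.6 CPM in female epithelium (log2 -0.13, interval -0.40 to 0.12, and -0.09, interval -0.48 to 0.27). Efna5, a lipid-anchored ligand, was at 41.0 and 46.9 CPM against 41.1 and 47.1 CPM in mesenchyme. Over the alternative processing settings the log2 ratios went as low as -0.77 (male) and -1.08 (female) for Efnb2. For Efna5 they went as low as -1.06 and -0.71. The level of both ligands thus depends on the processing. Efnb1, the X-linked transmembrane ligand, was lower at 21.6 and 22.3 CPM against 50.6 and 52.7 CPM (log2 -1.23, interval -1.71 to -0.79, and -1.24, interval -1.98 to -0.60). At the main settings the ligands thus differed among themselves in epithelium: the level of Efnb1 was the one clearly below that of mesenchyme. Over the alternative settings the highest Efnb1 ratios were -1.04 and -1.19.

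Ephb2 was the receptor with a higher value in epithelium, at 26.8 CPM (51 UMIs) in the male and 29.3 CPM (25 UMIs) in the female library against 17.2 and 19.3 CPM in mesenchyme. The log2 ratio was 0.64 (0.21 to 1.04) in male and 0.60 (-0.03 to 1.17) in female cells, and with cells thinned to 2000 UMIs the male value turned to -0.30. Epha4, at 64.7 and 69.2 CPM, stood at 30.2% and 27.9% of its mesenchyme level. After thinning, 11.97% of male and 12.5% of female epithelial cells held Epha4, against 12.1% and 15.4% of erythroid cells. The summed mesenchyme markers were at 8.04% and 13.2% of their mesenchyme level in epithelium and at 40.0% and 43.2% in erythroid cells, and the part of RNA from mesenchyme in these shares was not tested. Epha3 (9.99 and 12.9 CPM) and Epha7 (27.3 and 16.4 CPM) were also lower than in mesenchyme. Their log2 ratios were -2.31 and -1.999 for Epha3 and -1.75 and -2.62 for Epha7. Ephb3 had 5 male and 0 female UMIs in epithelium, at least 1.87-fold lower than mesenchyme in the female library, and Ephb4 stood at 21.03 and 25.8 CPM. No member passed 4-fold in either direction in both libraries, where 2.88% of 13196 genes were that much higher and 3.17% that much lower.

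The urethral and the surface epithelium differed in Epha7. A sub-cluster of 22 male and 13 female cells, led by Shh, Gpx2 and Foxa1, was urethral-like, and 101 male and 57 female cells were surface-like. A further 19 male and 18 female cells, led by Gabrp, Tac2 and Krt17, held markers of both lists and were left unnamed. Epha7 stood at 63.3 CPM (25 UMIs in 6 cells) in male and 50.3 CPM (5 UMIs in 4 cells) in female urethral-like cells, against 18.8 CPM (26 UMIs) and 8.52 CPM (5 UMIs) in surface-like cells. The log2 ratio was 1.75 (0.90 to 2.60) in the male and 2.56 (0.44 to 4.68) in the female library. With thinned cells, 13.6% of the 22 male and 15.4% of the 13 female urethral-like cells held an Epha7 UMI. In surface-like cells the shares were 3.96% of 101 and 5.26% of 57 cells. Few cells carry these shares. Mesenchyme markers were at 10.9% and 5.51% of their mesenchyme level in urethral-like and at 6.39% and 12.9% in surface-like cells. Epha7 was at 69.0% and 49.97% of its mesenchyme level in urethral-like cells. The marker list includes Hoxa13 (60.8 and 40.2 CPM in urethral-like cells) and Hoxd13 (88.7 and 111 CPM), so its sum is no clean measure of RNA from mesenchyme. The part of such RNA in the Epha7 level was not tested.

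The ligands did not separate these epithelia as clearly. Efnb2 stood at 88.7 and 101 CPM in urethral-like and at 62.3 and 47.7 CPM in surface-like cells, and both intervals of the log2 ratio include 0 (-0.10 to 1.09 and -0.13 to 2.16). Efna5 was at 60.8 and 50.3 CPM against 34.8 and 35.8 CPM, with a log2 ratio of 0.81 in the male library that turned to -0.39 after thinning. Ephb2 had 8 UMIs in male and 0 in female urethral-like cells, against 40 and 18 in surface-like cells. These values rest on few cells, and the intervals do not cover the spread between cells.

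Among the other cell types, Efnb2 was low in immune cells, at 6.80 and 3.17 CPM, and the members differed between glia and muscle. Glia and neural crest-like cells (32 male, 51 female) held 0 and 1 UMIs of Efnb2, in the male library at least 7.16-fold below mesenchyme, while Efna5 stood at 64.2 and 72.8 CPM (log2 0.64, interval -0.09 to 1.29, and 0.63, interval 0.15 to 1.07). Skeletal muscle-like cells (19 male, 54 female) held Epha3, known for its part in motor axon guidance, at 72.1 and 56.3 CPM (log2 over mesenchyme 0.54, interval -0.13 to 1.15, and 0.13, interval -0.30 to 0.52), while Ephb2 had 0 and 2 UMIs there. In the smooth muscle-like cells of the male library Efna5 stood at 128 CPM (interval 111 to 146).

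Within the mesenchyme, cells were divided into 12 units: 8 domains named by gene lists and 4 clusters without such a name, which are called here by leading genes (Hist1h2bc and Ccnb2, Gatm and Col14a1, Gatm and Postn, and Mab21l2 and Mecom). A domain is named by its list, which need not hold its leading genes. To avoid choosing and measuring in the same cells, the highest and the lowest unit were picked in one library and the ratio of CPM + 1 was measured in the other. By this measure 6 of the 9 members (Efna5, Ephb2, Ephb3, Epha3, Epha4 and Epha7) differed at least 2-fold both ways, against 27.4% of 13085 genes, and Efnb1, Efnb2 and Ephb4 did not. With at most 5% mitochondrial UMIs, which left few cells per unit, all 9 did, with Efnb1 at 1.74 and 1.10 and Efnb2 at 1.83 and 1.52 on the log2 scale (measured in male and female). The median gene differed 1.54-fold measured in the female and 1.58-fold measured in the male library.

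Epha3 had the widest range of the 9 members. It stood at 152 CPM in male and 141 CPM in female cells of the Foxd1, Sall3 and Lbx2 domain, at 103 and 119 CPM in the Aldh1a2, Tcf21 and Wt1 domain, at 82.7 and 79.6 CPM in the Ogn, Foxf1 and Npnt domain and at 53.3 and 61.0 CPM in the mitotic Hist1h2bc and Ccnb2 cluster. In the other 8 units it lay between 6.19 and 29.5 CPM in both libraries. Between the highest and the lowest unit (Gatm and Col14a1) the difference was 21.3-fold measured in the male and 13.2-fold measured in the female library. After thinning, 24.4% of male and 22.9% of female cells of the Foxd1 domain held an Epha3 UMI, against 1.15% and 1.45% in the Gatm and Col14a1 cluster.

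Epha4, the receptor that takes ligands of both classes, was high in the Ogn, Foxd1 and Aldh1a2 domains too, and in the Sim1 domain. It stood at 436 and 469 CPM in the Ogn domain, 397 and 375 CPM in the Foxd1 domain, 322 and 418 CPM in the Aldh1a2 domain and 329 and 424 CPM in the Sim1, Tbx15 and Agtr2 domain. The lowest levels were 46.5 and 62.7 CPM in the Mab21l2 and Mecom cluster and 78.8 and 84.6 CPM in the Dlx2, Runx1 and Dlx5 domain. The highest unit lay 9.2-fold (measured in male) and 7.38-fold (measured in female) above the lowest, and in both libraries 8 of the 11 steps between neighbours in the order of levels had an interval above 0.

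Epha7, a receptor known from limb and tubercle as a target of HOX13 factors, followed a similar order with a smaller range. It was at 151 and 148 CPM in the Foxd1 domain, 137 and 158 CPM in the Aldh1a2 domain and 127 and 155 CPM in the Ogn domain, and lowest at 40.7 and 42.7 CPM in the Mab21l2 and Mecom cluster and at 44.5 and 31.6 CPM in the Dlx2 domain. Over the 12 units, levels of Epha4 and Epha7 ran together (Pearson r of log2(CPM + 1), 0.86 in male and 0.88 in female), as did those of Epha3 and Epha7 (0.77 in both). These are descriptions over units that share a library, and they carry no test.

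Both units with the highest Efna5 held far less Epha3 than the Foxd1 domain. Efna5 stood at 82.1 CPM in male and 109 CPM in female cells of the Sim1, Tbx15 and Agtr2 domain and at 75.8 and 79.0 CPM in the Gatm and Postn cluster, where Epha3 was at 22.3 and 29.5 and at 18.1 and 10.9 CPM. The median Epha3 level of the units was itself only 16.8 CPM in male and 19.4 CPM in female cells. The Sim1 domain lay above that median in both libraries. The Gatm and Postn cluster lay above it in male and below it in female cells. Efna5 was lowest at 19.7 and 22.2 CPM in the Ogn domain and at 19.1 and 23.1 CPM in the Hist1h2bc and Ccnb2 cluster. In the Aldh1a2 domain both were high, with Efna5 at 60.7 and 62.7 CPM beside the Epha3 levels given above. The Foxd1 domain, highest in Epha3, had Efna5 at 38.2 and 46.6 CPM, near the median of the units (38.9 and 44.5 CPM). Over the 12 units the levels of both genes were only weakly related (Pearson r of log2(CPM + 1), -0.26 and -0.20). The range of Efna5 was 4.01-fold measured in the male and 4.58-fold measured in the female library.

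**Figure D3:**
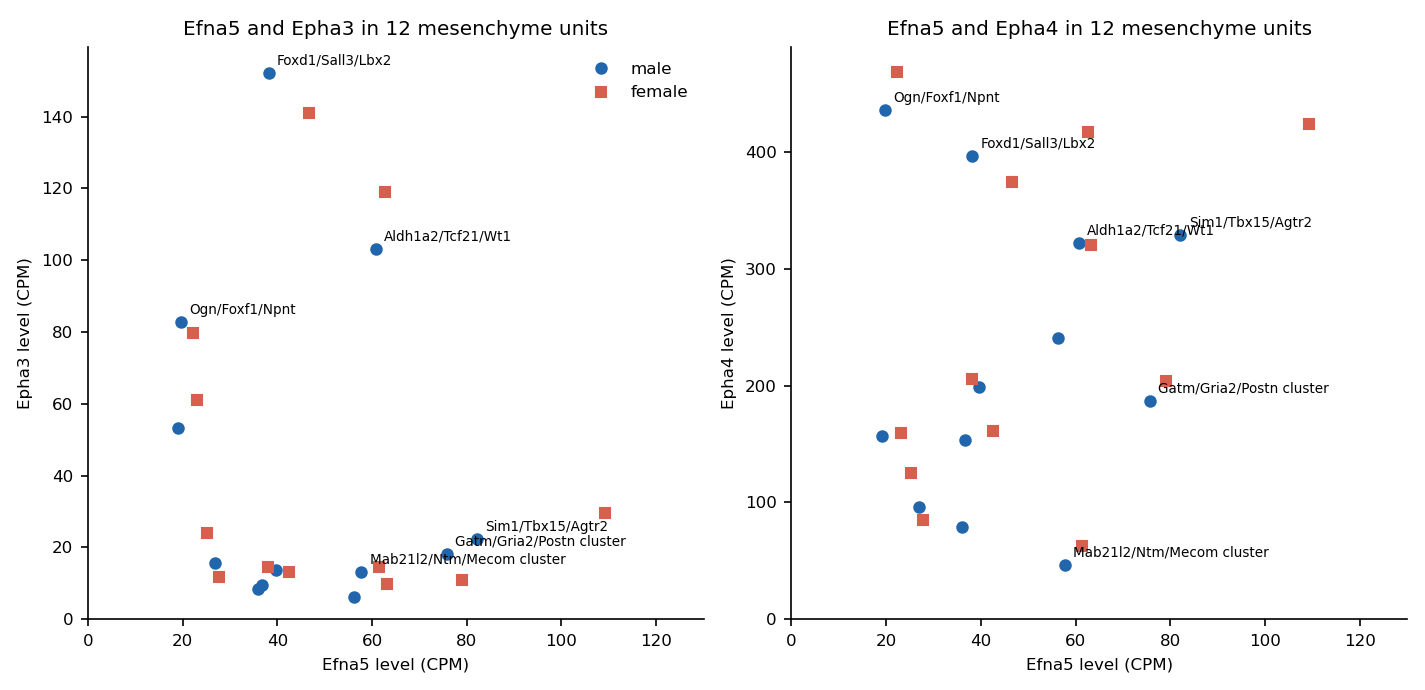
Level of Efna5 (x axis, CPM) against that of Epha3 (left) and Epha4 (right) (y axis, CPM) in 12 mesenchyme units, male as blue circles and female as red squares; 6 units are named beside their male point. The Sim1 domain, with Efna5 at 82.1 and 109 CPM, has Epha3 at 22.3 and 29.5 CPM and Epha4 at 329 and 424 CPM. The median Epha3 level of the units is 16.8 and 19.4 CPM.

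Among the EphB receptors, Ephb2 ranged from 8.91 and 8.42 CPM in the Dlx2 domain to 24.3 and 26.1 CPM in the Ogn domain, a difference of 2.55-fold measured in the male and 2.87-fold measured in the female library. With a limit of 5000 UMIs per cell the measure in the female library came to -0.07 on the log2 scale, so the Ephb2 order depends on the cells kept. Ephb3 was low throughout, from 3.63 and 2.53 CPM in the Dlx2 domain to 11.3 and 10.99 CPM in the Gatm and Col14a1 cluster, a difference of 2.66-fold measured in the male and 3.40-fold measured in the female library. Ephb4 lay between 25.7 and 49.3 CPM in every unit of both libraries, and none of its units next to each other in the order of levels differed beyond the counting interval. Such steps do not compare the ends of the order. In male cells these were the Ogn domain at 49.3 CPM (195 UMIs) and the Dlx2 domain at 25.7 CPM (78 UMIs). In female cells they were the Gatm and Col14a1 cluster at 47.0 CPM (188 UMIs) and the Mab21l2 and Mecom cluster at 29.4 CPM (197 UMIs).

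The B-type ligands were present in all mesenchyme units. Efnb1 lay between 38.8 and 78.9 CPM in all units. Its units still differed by more than counting error, since the Sim1 domain stood at 64.7 CPM (interval 56.8 to 73.5) and 78.9 CPM (72.8 to 85.4) and the Rprm, Pcdh10 and Spock3 domain at 41.6 CPM (36.5 to 47.2) and 40.3 CPM (35.8 to 45.2). Efnb2 lay between 46.7 and 108.5 CPM, with its upper levels in the Foxd1 domain (108.5 and 94.0 CPM) and the Sim1 domain (88.7 and 104 CPM). In the Foxd1 domain Efnb2 thus stood beside high Epha3, Epha4 and Epha7, and in the Sim1 domain beside high Epha4.

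For 10 ligand and receptor pairs known to bind, the overlap of profiles was taken over 17 units, the 12 of the mesenchyme with endothelium, epithelium, erythroid, glial and immune cells. It is the summed smaller share of both genes, 0 for genes in separate units and 1 for the same profile. Efna5 and Epha3 overlapped least, by 0.47 in male and 0.50 in female cells, and were the 1 pair below 0.6 in both libraries, a limit chosen after the values were seen. With at least 5000 UMIs per cell this pair was at 0.59 and 0.60. The next were Efnb2 and Epha4 at 0.70 and 0.71, Efna5 and Epha7 at 0.71 and 0.69 and Efna5 and Epha4 at 0.71 and 0.72. Efnb2 and Ephb4 overlapped most, by 0.87 and 0.89, both being present in every mesenchyme unit and higher in endothelium. Efnb1 overlapped Ephb2 by 0.81 and 0.84 and Ephb3 by 0.82 and 0.79.

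The 5 units outside the mesenchyme lowered the overlap of some pairs. For Efnb2 and Epha4 the overlap over mesenchyme units alone was 0.80 and 0.79, against 0.70 and 0.71 with the other cell types. For Efnb2 and Ephb2 it was 0.88 and 0.89 against 0.75 and 0.78. In both pairs endothelium held the ligand above its mesenchyme level and the receptor far below it, whereas glia held 0 and 1 UMIs of Efnb2 beside Ephb2 at 33.8 and 23.1 CPM. The share of each cell type in the lower overlap was not tested. For Efna5 and Epha3 the overlap over mesenchyme units was 0.47 and 0.50 as well, so this pair already differed between mesenchyme domains. It also parted in 2 other cell types. In epithelium Efna5 stood at 99.7% of its mesenchyme level in both libraries, and Epha3 at 20.2% (male) and 25.0% (female). In glia Efna5 stood at 156% and 155%, and Epha3 at 27.4% and 31.0%. In endothelium both genes were at least 4-fold lower than in mesenchyme.

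**Figure D4:**
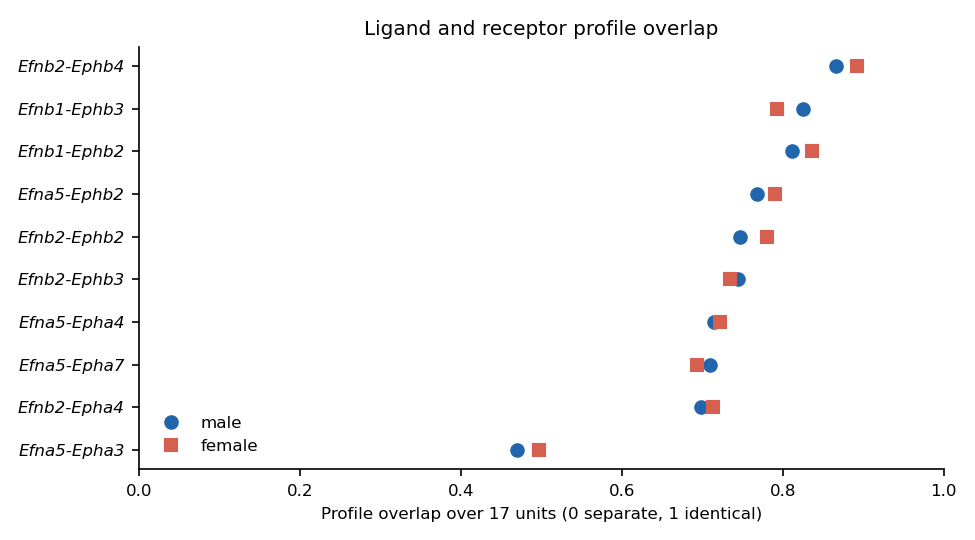
Profile overlap (x axis, 0 separate to 1 identical) of the 10 ligand and receptor pairs (rows) over 17 units, male as blue circles and female as red squares. Efna5 and Epha3 lie lowest at 0.47 and 0.50, and the other 9 pairs lie between 0.69 and 0.89.

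Cell by cell, ligand and receptor were found together about as often as their levels in each unit give. In mesenchyme cells thinned to 2000 UMIs, 629 male cells held both Efnb2 and Epha4, 1.23 times the product of both shares, and 1.12 times the sum of the products within each unit. The female values were 723 cells, 1.12 and 1.07. For Efna5 and Epha3, 78 male and 96 female cells held both, 0.92 and 0.96 times the sum of the products within units. Over the 10 pairs and both libraries this last ratio ran from 0.74 to 1.28, both ends being Efnb2 and Ephb3, with 16 male and 35 female cells that held both. Of the thinned mesenchyme cells with Epha4, 15.4% of male and 14.7% of female ones also held Efnb2.

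Between the sexes the members differed little. In mesenchyme the log2 ratio of male over female was below 0 for all 9 members, with a median of -0.07, while over 13085 genes the median was -0.02 and 55.7% were below 0. No member passed a ratio of 0.32 on the log2 scale in either direction, where 5.2% of genes were that much higher in male and 2.85% in female cells. Epha4 had the lowest ratio, with 214 CPM in male and 248 CPM in female cells (-0.21, interval -0.24 to -0.18), followed by Efna5 with 41.1 and 47.1 CPM (-0.19, interval -0.26 to -0.13) and Ephb2 with 17.2 and 19.3 CPM (-0.16, interval -0.27 to -0.06). Epha7 (-0.13) and Efnb2 (-0.07) also had intervals below 0, which made 5 of 9, against 28.3% of all genes at their own counts. An interval narrows with the count of a gene, and the members were not matched to genes of like counts. Ephb3 stood at 6.57 CPM in both libraries. All 9 ratios lay inside the middle 90% of genes, from -0.27 to 0.33. With at most 5% mitochondrial UMIs only 2 members stayed below 0 and Efna5 and Epha4 turned to 0.21 and 0.10. With 1 pool of embryos for each sex, a difference between sexes cannot be told apart from a difference between pools.

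Within the 12 units Epha4 was lower in male cells in 11, with a lowest ratio of -0.43, and 6 of these intervals lay below 0. The unit with a higher male value was the Foxd1 domain, at 397 against 375 CPM (0.08, interval 0.03 to 0.14). For Epha3 the units went both ways: the Foxd1 domain was higher in male cells (0.11, interval 0.02 to 0.20) and the Msx2, Msx1 and Sp9 domain lower (-0.64, interval -0.84 to -0.43). Ephb2 reached -0.85 (-1.37 to -0.35) in the Gatm and Col14a1 cluster, at 13.7 against 24.7 CPM. Efna5 was lower in male cells of the Sim1 domain (-0.41, interval -0.61 to -0.22), where the level of both libraries is highest.

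**Figure D5:**
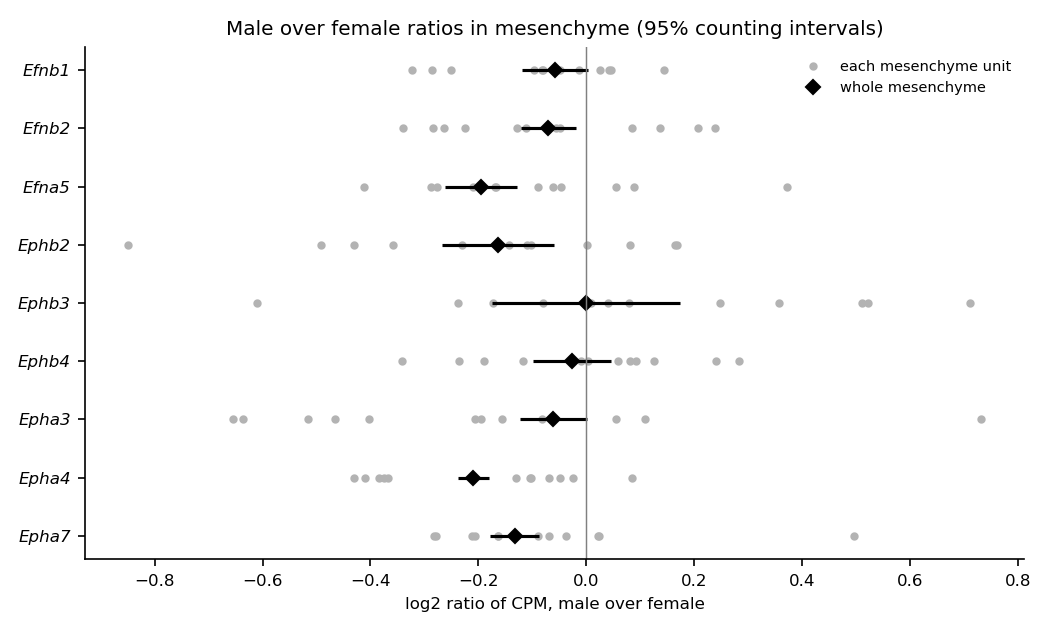
Log2 ratio of male over female CPM of each member (rows) in the whole mesenchyme (black diamonds, bars are 95% counting intervals) and in each of 12 mesenchyme units (grey points). The 9 values for the whole mesenchyme lie between -0.21 and 0.00, and the units spread to both sides of 0 for every member.

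Of the other ephrins, all 5 reached 100 UMIs, and of the other Eph receptors 5 of 8 did. In endothelium 1 of the 5 ephrins was at least 4-fold above mesenchyme in both libraries and 4 were that much below, against 5.4% and 6.91% of all genes. The 1 above was Efna1, a lipid-anchored ligand, at 141 and 168 CPM against 10.9 and 10.4 CPM (log2 3.69 and 4.02). Efna2, Efna3, Efna4 and Efnb3 were the 4 below, with Efna2 at 5.24 and 3.81 CPM against 82.0 and 85.6 CPM. Among the receptors Epha2, a main receptor of ephrin-A1, stood at 24.2 and 35.8 CPM in endothelium against 1.00 and 1.03 CPM in mesenchyme, while Epha5 was at 4.03 and 3.05 CPM against 78.5 and 93.1 CPM. Ephb1 was at 7.66 and 3.05 CPM against 1.50 and 1.23 CPM, and Ephb6 had 1 male and 0 female UMIs. An A-type ligand and an A-type receptor were thus higher in endothelium than in mesenchyme, whereas all A-type members were lower.

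In epithelium Epha1 stood at 30.0 and 30.5 CPM against 1.79 and 1.76 CPM in mesenchyme, and was the 1 of the 5 other receptors past 4-fold upward. Efnb3 was the 1 of 5 ephrins past 4-fold downward, at 8.94 and 9.39 CPM against 54.6 and 58.1 CPM. Epha5 also had a higher level in urethral-like cells, at 68.4 and 50.3 CPM in urethral-like against 7.25 and 8.52 CPM in surface-like cells (log2 3.24, interval 2.15 to 4.45, and 2.56, interval 0.44 to 4.68). The 27 male UMIs lay in 6 cells and the 5 female UMIs in 3, and after thinning 2 and 1 urethral-like cells held Epha5, so few cells carry this value. In mesenchyme Epha5 was lower in male cells at 78.5 against 93.1 CPM (-0.25, interval -0.29 to -0.20), also without passing 0.32. Epha6, Epha8 and Epha10 had 30, 55 and 4 UMIs in all kept cells.

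Of 12 measured partners of ephrin-B tails, 2 were at least 4-fold higher and 1 at least 4-fold lower in endothelium in both libraries, where 5.4% of all genes were that much higher and 6.91% that much lower. Rgs3, which binds the ephrin-B tail through a PDZ domain, stood at 93.9 and 115 CPM against 13.3 and 11.99 CPM, and the kinase Fyn at 194 and 190 CPM against 29.9 and 28.6 CPM. The phosphatase Ptpn13 was at 1.21 and 0.76 CPM against 18.9 and 21.4 CPM. In epithelium none of the 12 passed 4-fold, with Ptpn13 higher at 50.5 and 52.8 CPM. Of 20 measured partners of Eph receptors, 3 were at least 4-fold higher in endothelium (5.4% of all genes) and 0 lower (6.91%): the phosphatase Ptprb (112 and 98.3 CPM against 0.69 and 0.60 CPM), the exchange factor Arhgef15 (76.2 and 61.7 CPM against 1.02 and 1.15 CPM) and Vav3 (43.5 and 57.9 CPM against 5.35 and 4.32 CPM). The median log2 ratio of CPM + 1, endothelium over mesenchyme, was -0.25 for the ephrin-B partners and 0.40 for the Eph partners, against -0.34 over all genes.

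The genes whose levels over 17 units and both libraries (34 values) were most like a member were ranked by Pearson r of log2(CPM + 1) among 12512 genes outside the family. Epha4 was nearest to the Wnt-binding factor Sfrp2 (0.93) and the receptor Ror2 (0.92), Epha7 to Igsf3 (0.94) and the receptor subunit Cntfr (0.93), and Epha3 to the Hedgehog receptor Ptch1 (0.83) and to Hhip (0.83). Efnb2 was nearest to Mtmr11 (0.94) and Gfod2 (0.94), Ephb4 to Ccdc102a (0.95) and Rnf144a (0.95), and Efnb1 to Pcdh18 (0.95). Efna5 was nearest to Rbms3 (0.88), Ephb2 to Ldhb (0.94) and Ephb3 to Zfp239 (0.91). With a pseudocount of 10 CPM, 0 of the 3 nearest genes were kept for Epha3 and for Ephb3, and 1 of 3 for Ephb2. Units of a library share its depth and free RNA, and these coefficients carry no test.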

How the data were processed

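UMI counts per gene and barcode, as deposited by the authors, are raw and unfiltered; per the submitters' processing notes they were made with Cell Ranger 3.1 on mm10. The deposited counts total 130105692 UMIs (male) and 144515562 (female). Here barcodes were filtered, doublet scores (scanpy 1.11.5) removed 0.8% of cells per 1000 cells (Scrublet's own threshold marked 0), and cells were clustered on 1984 variable genes (Leiden, resolution 1) with no ephrin or Eph gene among them. Classes needed a mean marker log2 fold of at least 2, and mesenchyme domains and epithelial or endothelial sub-clusters at least 1; surface-like sub-clusters were named against cells outside the epithelium, a rule set after the sub-clusters were seen. Barcodes with 1 to 100 UMIs, which hold free RNA, had Efnb2 at 77.5 and 61.6 CPM and Epha4 at 196 and 181 CPM. All 9 members are named. Of the other family genes, those with at least 100 UMIs in all were named, of partner lists up to 4 per list by size of ratio, and of like genes the top 3. Ratios and intervals (scipy 1.17.1) were run on simulated Poisson counts. Those counts hold no spread between cells or pools, so the run checks the code and not that spread. Members and lists were chosen with earlier results of these data known. Of the gene IDs, 99.6% matched GENCODE M21.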

Additional observations from a re-analysis of the deposited data

How the results depend on the processing

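Of 814 values recomputed under an alternative, 555 stayed within the counting interval, the gap between libraries (overlaps and domain ratios) or 1.5 times a count, 252 moved and 7 turned sign, of which 6 were ratios whose interval excluded 0 and 1 was a domain ratio. With ratios whose interval includes 0 counted as well, 17 had the other sign. The ratios of Ephb3 in male endothelium and in female epithelium have no value, since the class held 0 UMIs, and 17 alternatives of other ratios gave none for the same reason. With at most 5% mitochondrial UMIs only 1213 male and 1101 female cells were left: the male over female log2 ratio in mesenchyme turned to 0.21 for Efna5, 0.0106 for Ephb2, 0.10 for Epha4 and 0.0127 for Epha7, 2 members were below 0 and 0 intervals were below 0. There, 1 member was at least 4-fold lower in endothelium and 2 in epithelium. With every cell thinned to 2000 UMIs, which leaves fewer UMIs to count, 3 sex intervals lay below 0 and 3 members were at least 4-fold lower in endothelium. Thinning also turned the male ratio of Ephb2 in epithelium over mesenchyme to -0.30 and that of Efna5 in urethral over surface-like cells to -0.39. With 5000 UMIs per cell, 0 pairs overlapped below 0.6 in both libraries, and the Ephb2 domain ratio measured in the female library was -0.0723; the cause was not tested. The count of members at least 2-fold between units, 6 as reported, lay between 4 and 9 over the alternatives, with Efnb1, Efnb2 and Ephb4 among the 9. No paired analysis was possible because each sex has 1 library. Depth limits what can be said of the epithelial and endothelial sub-clusters, of Ephb3, and of genes shared by single cells.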

Other observations

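Hoxa13, reported elsewhere to control Epha6 and Epha7 in tubercle vessels, was hardly seen in endothelium, with 4 male and 7 female UMIs. Hoxd13 had 7 and 7 UMIs there. Epha6 had 0 UMIs in the endothelium of either library, which allows up to 1.49 CPM in male and 2.81 CPM in female cells (upper ends of exact intervals, counting error only). In urethral-like epithelium Epha7 was higher than in surface-like cells. Hoxa13 stood there at 60.8 CPM (24 UMIs) in male and 40.2 CPM (4 UMIs, interval 10.96 to 103) in female cells. In surface-like cells it had 3.62 CPM (5 UMIs) and 0 UMIs. Hoxd13 stood at 88.7 CPM (35 UMIs) and 111 CPM (11 UMIs) in urethral-like against 7.97 and 15.3 CPM in surface-like cells. Whether these genes and Epha7 are in the same epithelial cells was not tested.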
